A study of Homo sapiens with 6 samples.

Results

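The transcripts described here encode the core of the interleukin-6 and STAT3 signalling axis, namely the receptors IL6ST, IL6R, LIFR and OSMR, the kinase JAK2, the transcription factor STAT3, the kinase PIM1 and the feedback inhibitors SOCS3, SOCS2 and CISH. They were taken from the deposited expression table as the rows annotated as protein-coding with these symbols. All 10 were found, among 19951 protein-coding genes and 58735 genes in all. Expression was measured by RNA-seq in NCI-N87 cells, an established gastric carcinoma line. The 3 control libraries came from cells infected with the empty lentiviral vector (labelled shNC, named shCtrl in the design) and the 3 knockdown libraries from cells with a vector carrying 1 shRNA against SCAMP1 (labelled shScamp1, named shS1#1). Both groups were grown in medium with serum, carried the puromycin vector and were selected with puromycin (2 μg/ml). No cytokine was added according to the labels, and both groups were stable populations, so the values describe basal levels after selection with a single shRNA. The labels call the 3 libraries of a group biological replicates, without saying whether they came from separate infections, so the p-values measure the spread between these libraries.

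Cytokines of the interleukin-6 family bind a ligand-specific receptor such as IL6R, LIFR or OSMR and signal through the shared receptor IL6ST, also called gp130. The receptor-bound kinases JAK1, JAK2 and TYK2 then phosphorylate STAT3, which enters the nucleus and activates its targets. Among these targets are SOCS3, which binds gp130 and JAKs and shuts the pathway off, and PIM1, a constitutively active kinase that promotes survival. SOCS2 and CISH are related inhibitors best known as targets of STAT5, downstream of growth hormone, prolactin and related cytokines. The study measured phosphorylated STAT3 by immunoblotting after SCAMP1 knockdown. It reported that phosphorylated STAT3, and its ratio to STAT3 protein, fell with shS1#1 and with another shRNA. RNA levels are a different measure and do not show phosphorylation. The transcripts of the axis are compared here between the sequenced shCtrl and shS1#1 cells.

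STAT factors bind palindromic DNA of the form TTCNNNGAA, where N is any base. The promoter of CISH is shown because it is dense in this motif and because CISH, like SOCS3, is among the inhibitors with lower values described below. RefSeq promoters on GRCh38.p14, from 250 bases before to 50 after each listed gene start, were searched for the motif, which reads the same on both strands. Windows were listed for 9 of the 10 genes, all but SOCS2. Of 35116 windows of all genes, 2689 (7.66%) held the motif at least once, 160 (0.456%) at least 2 times and 7 (0.0199%) at least 4 times. The single CISH window held it 4 times, and 2 of these matched the stricter form TTCCNGGAA, which 403 windows (1.15%) held at least once. The stretch that holds all 4 matches lies at chr3:50611878-50612024 on the minus strand, from 250 to 104 bases before the RefSeq start and outside the annotated exons of CISH. The matches are in capitals:
CISH: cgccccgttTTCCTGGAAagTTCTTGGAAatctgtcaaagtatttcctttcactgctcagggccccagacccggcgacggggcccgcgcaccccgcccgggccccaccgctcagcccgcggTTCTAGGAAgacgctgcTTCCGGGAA
LIFR, the other gene with a match, has 3 listed starts. Windows at 2 of them held the motif once each, at chr5:38595552-38595580 and chr5:38557631-38557659 (both on the minus strand), and these stretches are shown for comparison with CISH:
LIFR upstream: ccattactagTTCCTTGAAccacaatcca
LIFR downstream: gctttggagtTTCATCGAAaggtctttaa
No window of STAT3, IL6ST, IL6R, OSMR, JAK2, SOCS3 or PIM1 held these letters. For SOCS3 the listed windows were chr17:78360876-78361175 and chr17:78359618-78359917. Neither covers the annotated gene start at 78360077, so the bases around that start were not searched and SOCS3 cannot be compared with CISH there. A match describes the sequence only, and binding was not measured.

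The authors deposited FPKM, which is read number per kilobase of exon corrected for library size. Whole reads could be recovered from these values, and the libraries held between 14311769 and 15988700 reads on genes. SCAMP1, the targeted gene, was at 11.5 to 12.6 FPKM in shCtrl and at 1.37 to 1.99 FPKM in shS1#1 libraries, a log2 fold change of -2.78 (limma, adjusted p = 0.000248). The 5 epithelial markers EPCAM, CDH1, KRT8, KRT18 and KRT19 were at 54.5 FPKM or more in every library, and their sum rose from between 4221 and 4434 in shCtrl to between 7727 and 8494 in shS1#1 libraries. The rise lay mainly in the keratins KRT8 (mean 1534 FPKM in shCtrl and 3002 in shS1#1), KRT18 (875 and 2000) and KRT19 (1688 and 2844). CDH1 was at 55.1 and 75.7 FPKM, whereas EPCAM did not rise (153 and 148 FPKM). Of 10 leukocyte, fibroblast and endothelial markers, COL1A1 alone had a mean over all libraries of at least 0.5 FPKM, and COL1A2 and DCN had no read. The summed level was 0.337 to 0.656 and 0.403 to 0.612 FPKM for the 3 leukocyte markers, 0.533 to 0.689 and 0.476 to 0.773 FPKM for the 4 fibroblast markers, and 0.139 to 0.235 and 0.381 to 0.612 FPKM for the 3 endothelial markers in shCtrl and shS1#1 libraries. The epithelial and endothelial sums thus moved with the knockdown, and their part in the results was not tested. In bulk RNA, fewer cells that express a gene and less of its RNA per cell cannot be told apart. The shS1#1 replicate 2 library stood apart. Its counts differed from those of its group with a chi-square per degree of freedom of 36.8 and 47.0, against 2.02 to 3.23 for the other pairs within a group, and 9.21% of its reads were mitochondrial, against 6.09% to 6.78% in the others. Results of the 10 members that rest on it are given with and without it. Single genes of the other pathway lists are not all given without it. The 6 members with a mean of at least 0.5 FPKM (STAT3, IL6ST, OSMR, PIM1, JAK2 and SOCS3) were tested with limma on log2(FPKM + 0.1) together with 15556 genes in all. LIFR, IL6R, CISH and SOCS2 were under this filter. All 10 had a mean of at least 10 reads per library and were also tested with voom on the recovered reads, a choice made after the values were seen.

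The 10 genes differed in direction. PIM1 rose in shS1#1 cells, STAT3 was higher in every shS1#1 library without passing the threshold in the test of FPKM, and the inhibitors SOCS3, SOCS2 and CISH and the receptor LIFR were lower in every shS1#1 library. The levels of IL6ST, OSMR, IL6R and JAK2 overlapped between the groups. The groups thus did not overlap for 6 of the 10 genes, against 43.3% of all genes with a mean of at least 10 reads. In the test of FPKM, 1 of the 6 genes tested passed an adjusted p of 0.05, against 14.0% of all genes tested. With voom on reads, 5 of 10 passed, against 19.7% of all genes. Of these, 2 were higher (PIM1 and STAT3) and 3 lower (SOCS3, LIFR and CISH), against 11.5% and 8.24% of all genes. CISH reached the minimum of 10 reads only through the shCtrl libraries, so these counts are a description of the genes and not support for a direction. With the same test, 4 of 10 passed (not CISH) when shS1#1 replicate 2 was left out, against 38.6% of all genes.

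**Figure D1:**
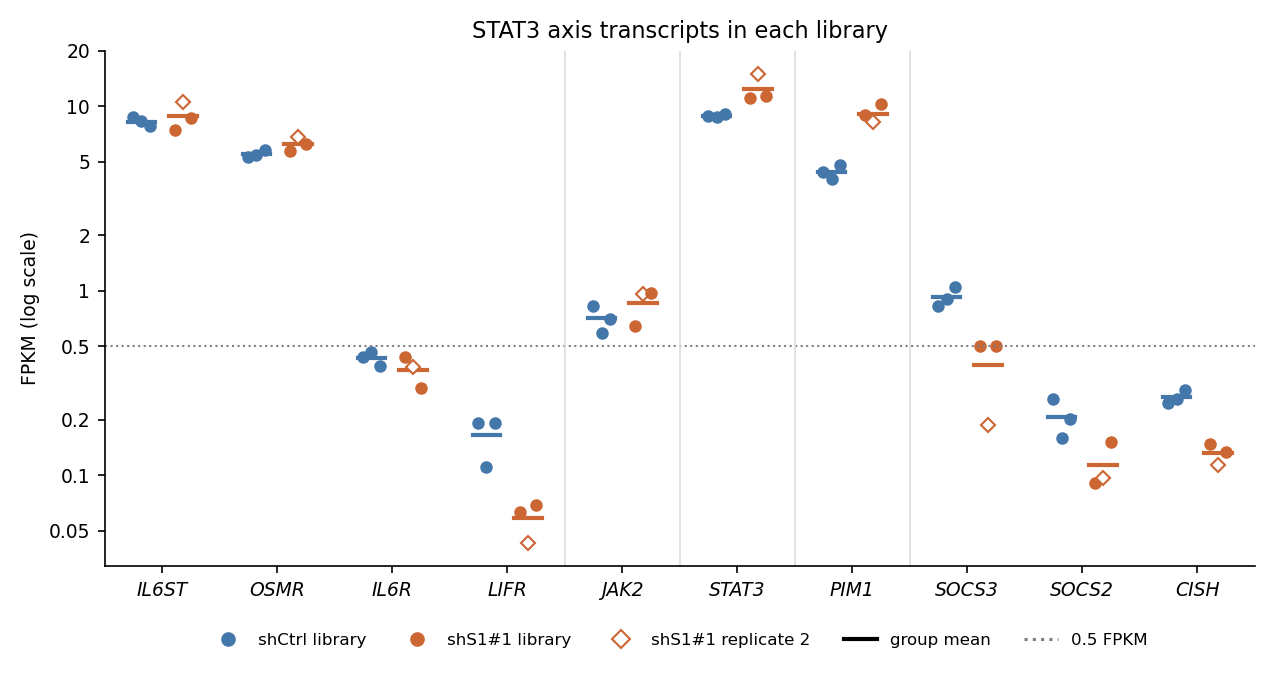
Expression of the 10 STAT3 axis genes in each library, in FPKM on a log scale, with circles for single libraries, an open diamond for shS1#1 replicate 2, short lines for group means (n = 3) and a dotted line at the filter of 0.5 FPKM. PIM1 and STAT3 were higher in all 3 shS1#1 libraries, whereas LIFR, SOCS3, SOCS2 and CISH were lower in all 3.

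STAT3 (ENSG00000168610) lies on chromosome 17 from 42313324 to 42388568 on the minus strand of GRCh38. Its level was 8.87, 8.76 and 9.10 FPKM in the shCtrl libraries and 11.0, 14.9 and 11.3 FPKM in the shS1#1 libraries. All 3 shS1#1 libraries were above all shCtrl libraries, and shS1#1 replicate 2 was the highest by far. The mean was 8.91 ± 0.175 FPKM for shCtrl and 12.4 ± 2.16 FPKM for shS1#1 (SD, n = 3 libraries each), from 1239 to 1801 reads per library. The log2 fold change was 0.46 with a standard error of 0.12 (limma, adjusted p = 0.0565), just short of the threshold. Without shS1#1 replicate 2 the difference in level was smaller and more even, with a log2 fold change of 0.33 (adjusted p = 0.00487 by limma), and here 28.3% of all genes passed. With voom on reads of all 6 libraries, STAT3 passed (log2 fold change 0.47, adjusted p = 0.0280).

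PIM1 (ENSG00000137193) lies on the plus strand of chromosome 6 from 37170203 to 37175426. Its level was 4.41, 4.01 and 4.78 FPKM in the shCtrl libraries and 8.92, 8.17 and 10.3 FPKM in the shS1#1 libraries. The lowest shS1#1 library was well above the highest shCtrl library. The mean rose from 4.40 ± 0.386 to 9.13 ± 1.07 FPKM (SD, n = 3 each), an increase of 107%, with 199 to 448 reads per library. The log2 fold change was 1.03 with a 95% confidence interval of 0.76 to 1.30 (limma, adjusted p = 0.00289). PIM1 thus also passed the fold change threshold of 1 used by the study, as did 3.16% of all genes tested. Its fold change fell under that threshold without shCtrl replicate 2 (0.97) and without shS1#1 replicate 3 (0.94), while its adjusted p in limma was at most 0.0220 when any 1 library was left out (6 fits). PIM1 was the only member that passed the test of FPKM in all of these fits.

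SOCS3 (ENSG00000184557), which blocks gp130 signalling, lies on the minus strand of chromosome 17 from 78356778 to 78360077. Its level was 0.830, 0.900 and 1.04 FPKM in the shCtrl libraries and 0.501, 0.187 and 0.49998 FPKM in the shS1#1 libraries. These values came from 36, 41 and 44 reads in shCtrl and from 20, 7 and 20 reads in shS1#1 libraries. All 3 shS1#1 libraries were lower than all shCtrl libraries, and shS1#1 replicate 2 was the lowest. The mean was 0.924 ± 0.108 FPKM for shCtrl and 0.396 ± 0.181 FPKM for shS1#1 (SD, n = 3 libraries each). SOCS3 passed the filter of 0.5 FPKM through its level in shCtrl cells. The log2 fold change of -1.12, with a standard error of 0.37, missed the threshold in the test of FPKM (limma, adjusted p = 0.0960), and SOCS3 passed with voom on reads (log2 fold change -1.30, adjusted p = 0.0336). Without shS1#1 replicate 2 the log2 fold change was -0.77 in the test of FPKM (adjusted p = 0.0572 by limma) and -0.86 with voom (adjusted p = 0.0203).

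CISH (ENSG00000114737), the inhibitor whose promoter is printed above, lies on the minus strand of chromosome 3 from 50606490 to 50611831. Its level was 0.247, 0.258 and 0.291 FPKM in the shCtrl libraries and 0.147, 0.114 and 0.134 FPKM in the shS1#1 libraries. Each shS1#1 library was below each shCtrl library, on 20 to 23 reads in shCtrl and 8 to 11 reads in shS1#1 libraries. CISH passed the minimum of 10 reads through its level in shCtrl cells, since its mean over the shS1#1 libraries was under 10 reads. With voom its values were lower (log2 fold change -0.97, standard error 0.26, adjusted p = 0.0328), and did not pass without shS1#1 replicate 2 (log2 fold change -0.88, adjusted p = 0.0608). On the log2(FPKM + 0.1) scale, which understates changes at this level, its log2 fold change was -0.66 (limma, adjusted p = 0.226 with the filter lowered to 0.1 FPKM, where 8.06% of all genes passed). Its exons share 218 bases with MAPKAPK3 on the opposite strand, which was at 15.1 to 19.0 FPKM. The counting is not stated to use strand, so reads in these bases cannot be told apart, and the value of CISH is uncertain to that extent.

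SOCS2 (ENSG00000120833), which dampens growth hormone signalling, lies on the plus strand of chromosome 12 from 93569814 to 93583487. Its level was 0.261, 0.159 and 0.201 FPKM in the shCtrl libraries and 0.0909, 0.0970 and 0.151 FPKM in the shS1#1 libraries. The groups did not overlap but came close, with 18 reads in the lowest shCtrl library and 15 in the highest shS1#1 library. Its log2 fold change with voom was -0.84 (standard error 0.32, adjusted p = 0.102), and -0.75 without shS1#1 replicate 2 (adjusted p = 0.123). Taken as a sum, reads on SOCS3, SOCS2 and CISH numbered 84, 81 and 88 in the shCtrl libraries and 40, 24 and 45 in the shS1#1 libraries. The highest sum in shS1#1 libraries was thus well below the lowest in shCtrl libraries. By pooled reads the ratio of shS1#1 to shCtrl was 0.434 for SOCS3 (95% interval 0.303 to 0.613), 0.499 for CISH (0.310 to 0.784) and 0.550 for SOCS2 (0.351 to 0.847). These exact binomial intervals cover counting error only and not the spread between libraries.

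**Figure D2:**
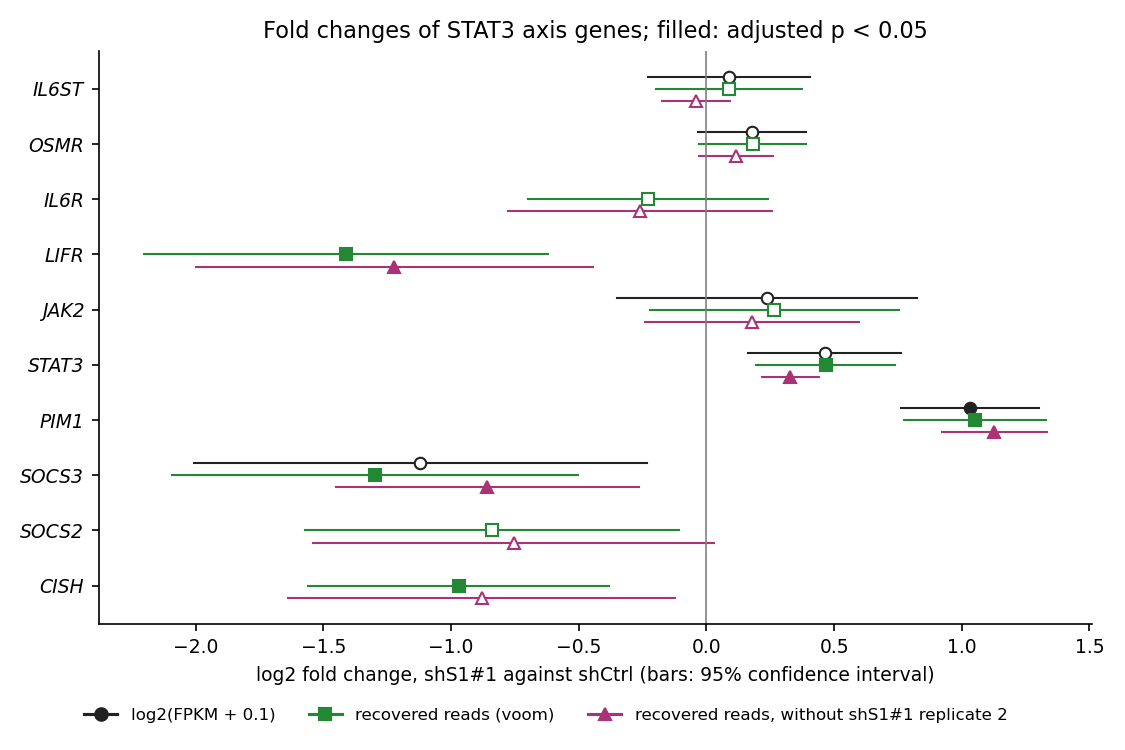
Log2 fold changes of shS1#1 against shCtrl with 95% confidence intervals from limma on log2(FPKM + 0.1) for the 6 genes over the filter (circles), from voom on recovered reads of all 10 genes (squares) and from voom without shS1#1 replicate 2 (triangles), where filled symbols passed an adjusted p of 0.05. PIM1 passed in all 3 fits, STAT3, SOCS3 and LIFR in both voom fits, and CISH in the voom fit with all libraries.

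LIFR (ENSG00000113594), the receptor for leukemia inhibitory factor, lies on the minus strand of chromosome 5 from 38474963 to 38608354 and had the lowest mean of the 10 genes in both groups. Its level was 0.191, 0.111 and 0.191 FPKM in the shCtrl libraries and 0.0635, 0.0431 and 0.0691 FPKM in the shS1#1 libraries. Each shS1#1 library was below each shCtrl library, with 22 to 36 reads in shCtrl and 7 to 12 reads in shS1#1 libraries. The log2 fold change with voom was -1.41 (standard error 0.35, adjusted p = 0.0243), and -1.22 without shS1#1 replicate 2 (adjusted p = 0.0123). On the log2(FPKM + 0.1) scale it was -0.73 and did not pass (adjusted p = 0.292 by limma with the filter lowered to 0.1 FPKM). LIFR passed this lowered filter only through its level in shCtrl cells (mean 0.165 FPKM, against 0.0586 FPKM in shS1#1), so that fit is a description only. For voom, the shS1#1 libraries (30 reads in all) did not exceed the minimum of 10 reads on average. The pooled reads gave a ratio of 0.360 (95% interval 0.231 to 0.549, counting error only). LIFR-AS1, which overlaps 629 exonic bases of LIFR on the opposite strand, was at no more than 0.0762 FPKM in any library.

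The other receptors were not shown to differ. IL6ST (ENSG00000134352), on chromosome 5 from 55935095 to 55994993, was at 8.71, 8.27 and 7.82 FPKM in shCtrl and at 7.48, 10.5 and 8.62 FPKM in shS1#1 libraries. The shCtrl values lay within the range of the shS1#1 values, and the log2 fold change was 0.09 (95% confidence interval -0.23 to 0.41, adjusted p = 0.683 by limma). Its sign depended on shS1#1 replicate 2, without which the log2 fold change was -0.0403. OSMR (ENSG00000145623), the receptor subunit for oncostatin M, lies on chromosome 5 from 38845858 to 38945596 on the plus strand. It was at 5.32, 5.45 and 5.77 FPKM in shCtrl and at 5.75, 6.85 and 6.21 FPKM in shS1#1 libraries, with an overlap of 1 library from each group. Its log2 fold change was 0.18 (95% confidence interval -0.03 to 0.39, adjusted p = 0.220 by limma). OSMR shares 229 exonic bases with RICTOR on the opposite strand, which was at 2.53 to 4.92 FPKM.

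IL6R (ENSG00000160712), the receptor that gives a cell its own response to interleukin-6, lies on chromosome 1 from 154405193 to 154469450. It was at 0.440, 0.465 and 0.391 FPKM in shCtrl and at 0.435, 0.385 and 0.297 FPKM in shS1#1 libraries, from 28 to 50 reads. The groups overlapped, and the log2 fold change with voom was -0.23 (95% confidence interval -0.70 to 0.24, adjusted p = 0.463). JAK2 (ENSG00000096968), a kinase bound to gp130 and to the growth hormone and prolactin receptors, lies on chromosome 9 from 4984390 to 5128183. It was at 0.828, 0.593 and 0.703 FPKM in shCtrl and at 0.644, 0.959 and 0.975 FPKM in shS1#1 libraries. The groups overlapped here too, and the log2 fold change of 0.24 had a wide interval (95% confidence interval -0.35 to 0.83, adjusted p = 0.549 by limma). The estimate for PIM1 (1.03) lay outside these intervals of IL6ST, OSMR and JAK2. For JAK2 this depended on the fit, since without shCtrl replicate 1 its interval reached 1.07 and the estimate for PIM1 was 1.04. The interval of PIM1 began at 0.76, inside that of JAK2, so a similar change of JAK2 is not excluded.

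The order of levels per gene length also differed between the groups. In shCtrl cells the order was STAT3, IL6ST, OSMR, PIM1, SOCS3, JAK2, IL6R, CISH, SOCS2 and LIFR, from 8.91 ± 0.175 to 0.165 ± 0.0461 FPKM (SD, n = 3). Neighbours in this order did not overlap, apart from CISH with SOCS2 and SOCS2 with LIFR. In shS1#1 cells PIM1 was in second place, with a range that overlapped that of IL6ST (8.88 ± 1.54 FPKM, SD, n = 3), and JAK2 was above SOCS3. SOCS3 then overlapped with IL6R (0.372 ± 0.0701 FPKM, SD, n = 3) and CISH with SOCS2. Thus gp130 and OSMR were well expressed in both groups, while IL6R, LIFR and the inhibitors were under 0.5 FPKM on average in shS1#1 cells.

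Levels of the target transcripts were also set against STAT3 in the same library, as log2 ratios of FPKM + 0.1, which does not depend on the scaling between libraries apart from this constant. For SOCS3 the ratio was -3.27, -3.15 and -3.01 in shCtrl and -4.21, -5.71 and -4.25 in shS1#1 libraries, a difference of -1.58. For CISH it was -4.69, -4.63 and -4.56 in shCtrl and -5.49, -6.13 and -5.61 in shS1#1 libraries, a difference of -1.12. For SOCS2 the difference was -0.99, with ratios of -5.09 to -4.64 in shCtrl and -6.25 to -5.51 in shS1#1 libraries. The ratio moved the other way for PIM1, by 0.57, from -0.99, -1.11 and -0.91 in shCtrl to -0.30, -0.86 and -0.14 in shS1#1 libraries. None of the 4 ratios overlapped between the groups, although PIM1 in shS1#1 replicate 2 lay close to the shCtrl range. For SOCS3, SOCS2 and CISH this was fixed by the values above, since each was lower and STAT3 higher in every shS1#1 library. Their ratios thus add no separate support for a direction. The share of all genes whose ratio to STAT3 would not overlap was not computed. STAT3 itself was higher in shS1#1 libraries, and its log2 fold change of 0.46 lowers each of these differences by that amount. The shS1#1 replicate 2 library was the lowest of the shS1#1 libraries in all 4 ratios. Without it the differences were -1.09 for SOCS3, -0.93 for CISH, -0.80 for SOCS2 and 0.78 for PIM1. The exact two-sided permutation test gave p = 0.1 for each, the smallest p that 3 against 3 libraries allow, and 0.1 after Benjamini-Hochberg adjustment over the 4 ratios. For SOCS3, SOCS2 and CISH this p was fixed in the same way.

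**Figure D3:**
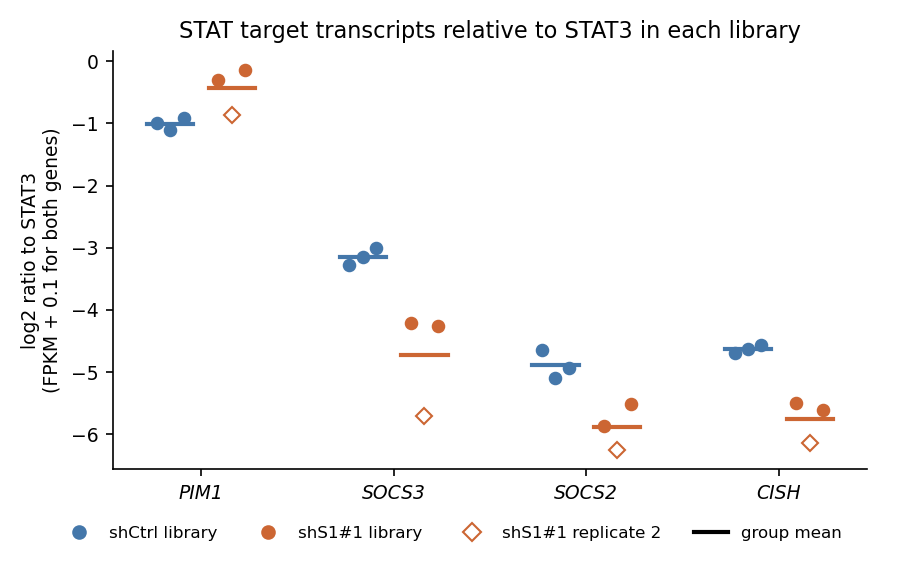
Log2 ratio of PIM1, SOCS3, SOCS2 and CISH to STAT3 in each library (FPKM + 0.1 for both genes), with circles for libraries, an open diamond for shS1#1 replicate 2 and short lines for group means (n = 3). The ratio was higher for PIM1 and lower for the 3 inhibitors in all 3 shS1#1 libraries.

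To place the members in their pathway, 91 other genes in 6 lists of ligands, receptors, JAKs and STATs, inhibitors and targets were read from the same fit. Of these, 57 passed the filter, 8 rose and 3 fell at an adjusted p under 0.05 (8.82% and 5.17% of all genes tested rose and fell). Their median log2 fold change was 0.04, beside -0.02 over all genes tested. Without shS1#1 replicate 2, 22 of these genes passed, as did 28.3% of all genes tested. The number was 6 without shCtrl replicate 1 (5.34% of all genes), 5 without shCtrl replicate 2 (5.25%), 5 without shCtrl replicate 3 (5.51%), 5 without shS1#1 replicate 3 (6.61%) and 10 without shS1#1 replicate 1 (11.6%). The numbers for these lists thus moved with the share of all genes called.

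Of the 11 ligands of the gp130 family, 4 passed the filter and 0 passed the limma test (1 had an unadjusted p under 0.05, 1 passed as higher without shS1#1 replicate 2 and 1 passed as lower with voom). The ligand with an unadjusted p under 0.05 was IL11, at 1.03 ± 0.0613 FPKM in shCtrl and 0.555 ± 0.141 FPKM in shS1#1 (SD, n = 3 each). It was lower in all 3 shS1#1 libraries and missed the threshold (log2 fold change -0.81, adjusted p = 0.0705 by limma). LIF, the ligand of LIFR, was the most abundant at 34.5, 35.7 and 35.8 FPKM in shCtrl and 41.5, 28.1 and 38.3 FPKM in shS1#1 libraries, with no consistent direction (log2 fold change 0.01, adjusted p = 0.985 by limma). This rests on shS1#1 replicate 2, which was below every shCtrl library, while shS1#1 replicates 1 and 3 were above them. CLCF1, another cytokine of the family, was at 6.92 ± 0.473 and 7.10 ± 2.13 FPKM (SD, n = 3 each). It had the same pattern, with 4.70 FPKM in shS1#1 replicate 2 and 7.83 and 8.76 FPKM in shS1#1 replicates 1 and 3. IL6 had no read in any library, which allows up to 3 reads in each. OSM, the ligand of OSMR, had 2 to 6 reads in each library, too few for a test. The cells thus carried abundant transcripts for LIF and for gp130, and few for LIFR.

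Among the other receptors that couple to STAT3, 4 of 11 passed the filter. IL22RA1, the epithelial receptor for interleukin-22, rose from 2.20 ± 0.122 to 3.59 ± 0.156 FPKM (SD, n = 3 libraries each, limma log2 fold change 0.68 and adjusted p = 0.00488). IL27RA, which pairs with gp130 to bind interleukin-27, fell from 9.08 ± 0.273 to 6.19 ± 0.358 FPKM (SD, n = 3 libraries each, limma log2 fold change -0.55 and adjusted p = 0.00603). IL11RA, the receptor for interleukin-11, was at 2.35, 2.16 and 2.20 FPKM in shCtrl and at 1.54, 0.872 and 1.57 FPKM in shS1#1 libraries, lower in all 3, with a log2 fold change of -0.75 that missed the threshold (limma, adjusted p = 0.0764). With voom, with protein-coding genes only and without shS1#1 replicate 2, 2 genes of this list were called lower. LEPR, the leptin receptor, had a log2 fold change of 0.15 (adjusted p = 0.633). Of 8 receptors that couple to STAT5, 3 passed the filter and 1 was called. CSF2RA, the receptor subunit for GM-CSF, rose from 1.59 ± 0.211 to 3.93 ± 0.296 FPKM (SD, n = 3 libraries each, limma log2 fold change 1.26 and adjusted p = 0.00206). It lies in a region that chromosomes X and Y share, which makes its counting uncertain.

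Among the other JAK and STAT genes, 6 of 8 passed the filter, 1 rose and 1 fell. STAT2, which mediates the response to type I interferons, rose from 5.07 ± 0.0879 to 11.8 ± 0.726 FPKM (SD, n = 3 libraries per group, limma, adjusted p = 0.000510), and was called whichever library was left out. STAT5A and STAT5B, the neighbours of STAT3 on chromosome 17, did not move together. STAT5B fell from 4.30 ± 0.121 to 3.31 ± 0.0874 FPKM (SD, n = 3 libraries each, limma log2 fold change -0.37 and adjusted p = 0.0208), a call that held, of 6 fits without 1 library each, only in the one without shS1#1 replicate 2. STAT5A was at 1.63 ± 0.151 and 2.10 ± 0.262 FPKM (SD, n = 3 libraries each, limma log2 fold change 0.34 and adjusted p = 0.135). JAK1 (log2 fold change 0.12, adjusted p = 0.429) and TYK2 (-0.04, adjusted p = 0.767) did not pass, and both were far more abundant than JAK2, at 17.5 and 15.2 FPKM in shCtrl cells.

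**Figure D4:**
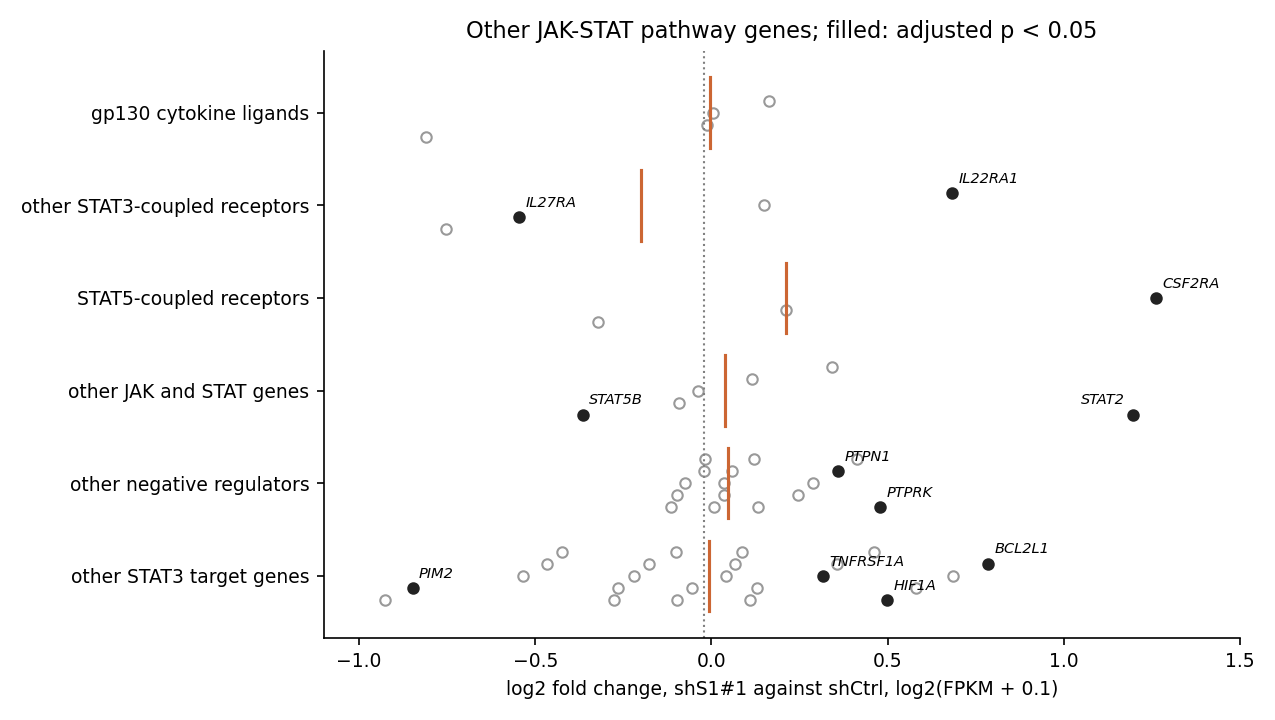
Log2 fold changes of shS1#1 against shCtrl, on the log2(FPKM + 0.1) scale, of the 57 other pathway genes over the filter, by list, with filled and named points for genes with an adjusted p under 0.05, a vertical bar for the median of each list and a dotted line at the median of all genes tested (-0.02). Of the named genes, 8 lie to the right of zero and 3 (IL27RA, STAT5B and PIM2) to the left.

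Of the 19 other negative regulators, 16 passed the filter, 2 rose and 0 fell. PTPN1, a phosphatase that acts on JAK2 and TYK2, rose from 16.3 ± 0.296 to 20.9 ± 0.344 FPKM (SD, n = 3 libraries each, limma log2 fold change 0.36 and adjusted p = 0.0110). PTPRK, a receptor phosphatase, had a log2 fold change of 0.48 (adjusted p = 0.0322 by limma). Each was called in 2 of 6 fits without 1 library, and the highest adjusted p was 0.0700 for PTPN1 (without shCtrl replicate 1) and 0.126 for PTPRK (without shCtrl replicate 3). SOCS1, the closest relative of SOCS3 in function, was at 0.176, 0.601 and 0.577 FPKM in shCtrl and at 0.457, 0.447 and 0.571 FPKM in shS1#1 libraries, on 5 to 18 reads, under the filter. SOCS4 to SOCS7, which are not classical STAT3 targets, were at higher levels of 3.85 to 12.6 FPKM in shCtrl cells and did not pass. Among these relatives, SOCS1, SOCS4, SOCS5 and SOCS7 overlapped between the groups, and SOCS6 was higher in all 3 shS1#1 libraries (adjusted p = 0.0815).

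Among 34 other genes described as STAT3 targets, 24 passed the filter, 3 rose and 1 fell, with a median log2 fold change of -0.01. BCL2L1, which encodes the survival protein BCL-XL, rose from 41.4 ± 2.31 to 71.3 ± 1.09 FPKM (SD, n = 3 libraries each, limma log2 fold change 0.79 and adjusted p = 0.00124), and was called whichever of the 6 libraries was left out. HIF1A (limma log2 fold change 0.50 and adjusted p = 0.0145) and TNFRSF1A (0.32, adjusted p = 0.0173) also rose, and each was called in 2 of these 6 fits. PIM2, a paralog of PIM1, went the other way and fell from 5.42 ± 0.347 to 3.00 ± 0.584 FPKM (SD, n = 3 libraries each, limma log2 fold change -0.85 and adjusted p = 0.0133), a call that held in 3 of the 6 fits (highest adjusted p = 0.0662, without shCtrl replicate 3). PIM3, the most abundant PIM gene, was at 68.0 ± 2.93 and 61.0 ± 11.8 FPKM (SD, n = 3 libraries each, limma log2 fold change -0.18 and adjusted p = 0.468). Its groups overlapped, and the lowest value of 47.4 FPKM was in shS1#1 replicate 2. Other targets had an adjusted p between 0.05 and 0.1 by limma. CEBPD (log2 fold change -0.43, adjusted p = 0.0659), CEBPB (-0.53, 0.0819) and MYC (-0.47, 0.0861) were lower in all 3 shS1#1 libraries. IRF1 (0.46, 0.0811) and LCN2 (0.69, 0.0957) were higher in all 3.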

How the data were processed

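RNA-seq libraries of NCI-N87 cells, 3 shCtrl and 3 shS1#1, were grouped by their titles. The authors deposited FPKM per gene and library. The submitters' processing notes name HISAT2 2.0.5, featureCounts 1.5.0-p3, DESeq2 1.20.0 and hg38, with no setting for strand. All 58735 gene coordinates equalled GENCODE 29 on GRCh38. FPKM multiplied by length was a whole multiple of 1 step per library for 100% of values above 0 (tolerance 0.02 reads), which gave reads per gene and showed that a scaling between libraries was already applied. log2(FPKM + 0.1) was fitted with limma 3.58.1 in R 4.3.3 (lmFit, eBayes with trend, group only) where mean expression reached 0.5 FPKM, with Benjamini-Hochberg adjustment over all 15556 genes tested. Recovered reads were fitted with limma's voom, with library sizes from the deposited scaling. The fits were checked on simulated reads that had 1 common spread for all genes and no library that stood apart. This check thus does not cover the noise of shS1#1 replicate 2. Python 3.11.15, scipy 1.17.1 and matplotlib 3.10.9 were used for recovery, permutation tests and plots. Members and lists were chosen with earlier results of these data known. Named genes were all members, SCAMP1, up to 8 called genes per list, and 8 family members or ligands called or not (JAK1, TYK2, STAT5A, STAT5B, SOCS1, PIM2, PIM3 and LIF). CLCF1, IL6, IL11, OSM, IL11RA, LEPR, SOCS4 to SOCS7, CEBPD, CEBPB, MYC, IRF1 and LCN2 were added after their values were seen. Alternatives covered the pseudocount, filter, trend, biotype, scaling, voom, the replicate number as a block and leaving out each library. Some genes are not reported here.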

Additional observations from a re-analysis of the deposited data

How the results depend on the processing

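In the test of FPKM, 1 member (PIM1) passed an adjusted p of 0.05, as did 14.0% of all genes. The number was 2 with a filter of 1 FPKM (17.2% of all genes), 3 with protein-coding genes only (22.8%), 3 with voom (17.7%), 5 with voom on genes with at least 10 reads (19.7%) and 4 (38.6%) when this fit also left out shS1#1 replicate 2 (the last 2 fits, and a filter of 0.1 FPKM, were chosen after seeing the data). SOCS3 is in the counts of 3, 5 and 4, LIFR in the counts of 5 and 4, and CISH in the count of 5. SOCS3 passed the filter of 0.5 FPKM, and CISH the minimum of 10 reads, only through the shCtrl libraries. LIFR, with 30 reads in all in the shS1#1 libraries, did not exceed that minimum there on average. These counts are thus a description of the genes and not support for a direction. When 1 library was left out, 2 members were called without shS1#1 replicate 2 (28.3% of all genes). Each other such fit called 1 (5.25% to 11.6% of all genes). Members also past the fold threshold numbered 1 in the test of FPKM, as did 3.16% of all genes. The number was 0 with a pseudocount of 1, 2 with protein-coding genes only, 2 with voom, 3 with voom on genes with at least 10 reads, 2 in the latter without shS1#1 replicate 2, and 0 to 1 when 1 library was left out. SOCS3 is in the numbers with protein-coding genes only and in both voom fits of all libraries. LIFR is in both numbers with voom on genes with at least 10 reads. For these other fits the share of all genes past the fold threshold was not computed. PIM1 passed in 20 of 20 fits. IL6ST, at 0.09 with all libraries, ranged from -0.0403 (without shS1#1 replicate 2) to 0.20 (without shS1#1 replicate 1) when 1 library was left out, and was -0.0411 with voom without shS1#1 replicate 2. The differences of the log2 ratios to STAT3 were -0.90 for SOCS3, -0.54 for SOCS2 and -0.59 for CISH with a pseudocount of 1, and -1.43 for CISH with a pseudocount of 0.01. Other pathway genes called numbered 11 (19.3% of those tested, and 14.0% of all genes). The number was 17 with protein-coding genes only (29.8%, and 22.8% of all genes) and 18 with voom (31.6%, and 17.7%). It was 18 with voom on genes with at least 10 reads (29.5%, and 19.7%) and 30 in the latter without shS1#1 replicate 2 (47.6%, and 38.6%). When 1 library was left out, it was 5 to 22 (8.77% to 38.6%, and 5.25% to 28.3%). The cause of these moves was not tested. SCAMP1 was called in every fit.

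Samples with the same replicate number were not paired by the labels, and their deviations from the group means had correlations of -0.0351, 0.0325 and 0.0668, with 3 of 6 libraries closest to their own number. With the replicate number as a block, 1 member (PIM1) and 5 other pathway genes were called, and 958 of all genes against 2177 without the block. Depth limited SOCS3, SOCS2, CISH and LIFR, which had 7 to 44 reads per library.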
